A study of Rattus norvegicus with 6 samples.

Results

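Adipocyte differentiation and lipid uptake were followed through 6 genes, Pparg, Cebpa, Fabp4, Lpl, Cd36 and Adipoq, taken by their identifiers from a list of such genes out of the 30560 genes measured. Adipogenesis is the alternative to bone formation for stromal cells of the marrow. The nuclear receptor PPARγ and the transcription factor C/EBPα, encoded by Pparg and Cebpa, maintain each other's expression and switch on the genes of the fat cell. Among these are Fabp4, a carrier of fatty acids in the cytoplasm, Lpl, the secreted lipase that frees fatty acids from lipoproteins, Cd36, a fatty acid receptor of the cell surface, and Adipoq, which encodes the fat cell hormone adiponectin. RNA sequencing was done in 3 samples that had received an siRNA against S100A16 (siS100A16) and 3 that had received a control siRNA (siNC). Such a small interfering RNA directs the cell to destroy the messenger RNA it is complementary to, and S100A16 is a calcium-binding protein of the S100 family.

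All 6 samples were rat mesenchymal stem cells from femoral bone marrow, used at passages 3 to 5 and placed under osteogenic differentiation, and no group was left without that treatment. The strain, age and sex of the rats, the siRNA dose and the time of harvest were not stated in the labels, nor is it said whether the numbered samples came from separate animals. The study addressed whether S100A16 restrains bone formation by these cells. Per sample, 5387539 to 6937001 reads were counted to genes in siS100A16 and 7135826 to 8059327 in siNC. The level of S100A16 itself and the markers of stromal, bone, fat and blood cells were not looked up, because the deposited table carries Ensembl identifiers without names.

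The 6 genes were taken by their identifiers: ENSRNOG00000008839 for Pparg, ENSRNOG00000010918 for Cebpa, ENSRNOG00000010805 for Fabp4, ENSRNOG00000012181 for Lpl, ENSRNOG00000005906 for Cd36 and ENSRNOG00000001821 for Adipoq. This pairing was given with the gene list and is recorded neither in the table nor in the RefSeq gene table, in which 0 of 47357 rat genes carry an Ensembl identifier. It was checked only against the gene lengths that the expression values imply. The lengths were 1903 nt for Pparg, 1188 nt for Fabp4, 3683 nt for Lpl, 1834 nt for Cd36 and 1183 nt for Adipoq, each shorter than the RefSeq span of the gene from start to end, introns included. That is a weak check, since most genes would pass it. The length of the Cebpa row was 2980 nt, 307 nt more than the RefSeq span of 2673 nt. Cebpa has no introns, so its span and its transcript should be alike. The plan was to drop a gene that failed this check, but Cebpa was kept with this reservation. The count of genes called is also given without it, while the other counts and ratios include it.

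The regulators are shown first by the DNA in front of their start sites, because a level per gene adds up transcripts from all starts. RefSeq (build GRCr8) lists 2 such windows for Pparg, 57.7 kb apart, so the values of Pparg below cannot be assigned to either start. The 250 bases before each start are written 5′ to 3′ on the plus strand, with matches to the TATA box (TATAAA), the GC box (GGGCGG) and the CCAAT box (CCAAT) in capitals, on either strand. The window at chr4:150096808-150097057 lies before the upstream Pparg start, that at chr4:150154522-150154771 before the downstream one, and that at chr1:96896334-96896583 before Cebpa.
Pparg, upstream start: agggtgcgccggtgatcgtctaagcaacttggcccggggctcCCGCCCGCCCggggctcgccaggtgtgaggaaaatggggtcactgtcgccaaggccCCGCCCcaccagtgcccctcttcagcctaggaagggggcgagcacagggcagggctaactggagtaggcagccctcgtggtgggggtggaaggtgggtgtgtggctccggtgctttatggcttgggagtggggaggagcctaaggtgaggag
Pparg, downstream start: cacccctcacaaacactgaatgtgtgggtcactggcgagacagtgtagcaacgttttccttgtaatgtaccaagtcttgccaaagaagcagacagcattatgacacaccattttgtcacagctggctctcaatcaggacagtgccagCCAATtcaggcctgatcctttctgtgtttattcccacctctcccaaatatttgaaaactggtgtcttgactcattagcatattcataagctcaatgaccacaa
Cebpa: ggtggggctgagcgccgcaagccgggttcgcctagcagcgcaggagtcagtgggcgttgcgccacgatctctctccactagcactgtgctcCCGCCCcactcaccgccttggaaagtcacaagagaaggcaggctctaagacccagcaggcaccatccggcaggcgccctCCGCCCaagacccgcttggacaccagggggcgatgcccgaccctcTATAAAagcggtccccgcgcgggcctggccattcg
The upstream Pparg window held 3 GC box matches, of which 2 overlap, and the downstream window held none of these but 1 CCAAT match. The Cebpa window held 2 GC box matches and 1 TATA match, which begins 35 bases before the start. Of 33469 rat windows of this length, 12.9% hold the TATA letters, 30.5% the GC box letters and 34.0% the CCAAT letters, so such matches are common and describe only the sequence.

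Pparg had 2.58, 6.58 and 11.1 FPKM in siS100A16 replicates 1 to 3, against 3.41, 2.95 and 3.52 FPKM in siNC replicates 1 to 3. FPKM is the number of reads per kilobase of gene, divided by the depth of the library. The first step lets levels be set side by side between genes and the second between libraries. The second and the third siS100A16 sample lay above all siNC samples and the first lay below them, so the groups overlapped. The reads behind these values were 34, 80 and 114 in siS100A16 and 49, 40 and 54 in siNC. Counting error alone (exact Poisson, 95% interval) gives 1.78 to 3.6 FPKM for the first siS100A16 sample and 9.17 to 13.4 FPKM for the third, so these samples of 1 group differed by more than the sampling of reads. The interval of the first siS100A16 sample holds the values of all siNC samples, so its place below them is within counting error. Such intervals, here and later, hold counting error alone, because copies made by amplification are not separate molecules.

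Mean Pparg was 6.76 ± 4.27 FPKM in siS100A16 and 3.29 ± 0.304 FPKM in siNC (SD, n = 3 each). The log2 fold change, siS100A16 over siNC on the log2(FPKM + 1) scale, was 0.69 (95% interval -0.27 to 1.65) and did not pass the test across all genes (limma, Benjamini-Hochberg adjusted p = 0.28). Without siS100A16 replicate 1 it was 1.16 with a limma adjusted p of 0.0388. Without siS100A16 replicate 3, the sample with the highest Pparg of all 6, it was 0.28 with a limma adjusted p of 0.597, so both the estimate and the call depended on single siS100A16 samples. In bulk samples, fewer cells of a type and less RNA per cell cannot be told apart, for Pparg as for the genes that follow.

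Cebpa had 3.24, 7.57 and 2.3 FPKM in siS100A16, against 5.24, 3.39 and 4.58 FPKM in siNC. Its highest value was in the second siS100A16 sample and its lowest in the third, with all siNC samples between the second sample and the other siS100A16 samples. The counting intervals of the first siS100A16 sample, 2.51 to 4.12 FPKM, and of siNC replicate 2, 2.65 to 4.26 FPKM, overlapped. The group means were alike, at 4.37 ± 2.81 FPKM in siS100A16 and 4.4 ± 0.939 FPKM in siNC (SD, n = 3 each). The log2 fold change was -0.12 (95% interval -0.97 to 0.74, limma adjusted p = 0.856), an interval that holds values of FPKM + 1 from 0.511 to 1.67 times that of siNC. The sign changed without siS100A16 replicate 3, to 0.17, and with estimated sample weights, to 0.15. Pparg and Cebpa, which are known to sustain each other, were not highest in the same siS100A16 sample: in the third, Pparg was 4.82 times Cebpa in FPKM, against 0.795 and 0.87 times in the first and second and 0.65 to 0.87 times in siNC.

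**Figure D1:**
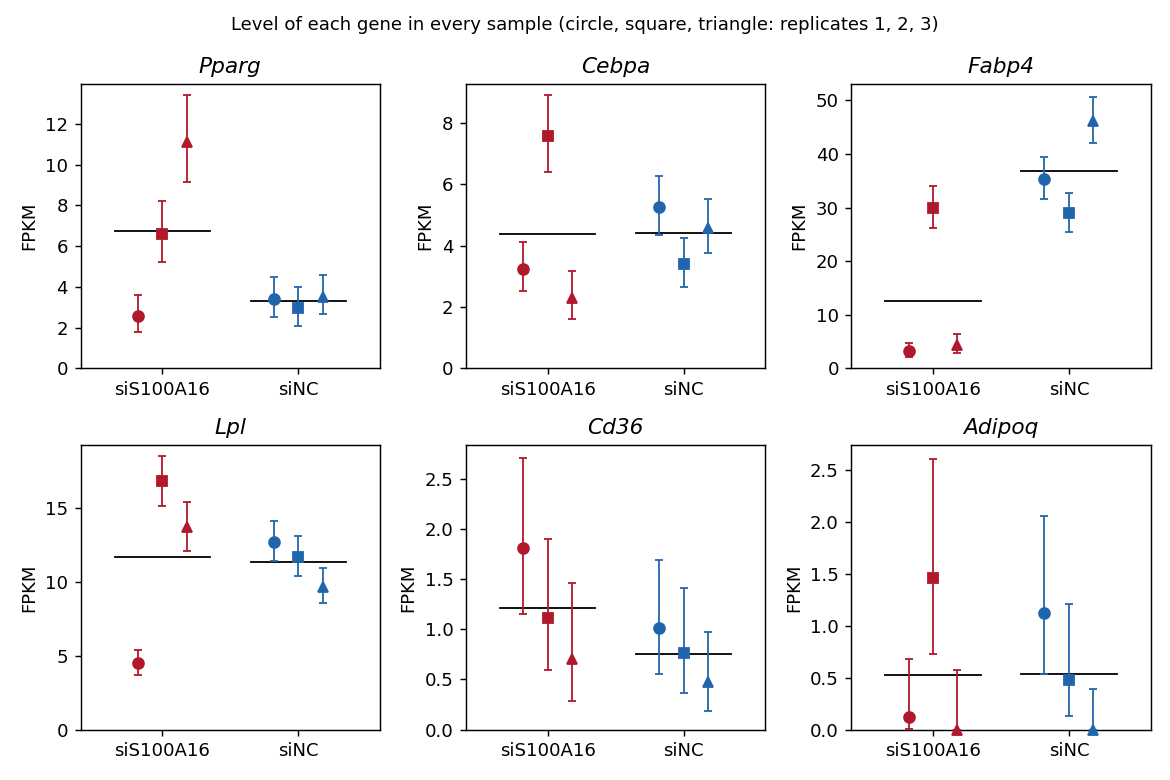
FPKM of the 6 genes in every sample, with siS100A16 at the left and siNC at the right of each panel; circle, square and triangle stand for replicates 1, 2 and 3, bars for 95% Poisson intervals of the reads and lines for group means. Fabp4 in siS100A16 replicates 1 and 3 lies at 3.28 and 4.37 FPKM, far below the siNC samples at 28.9 to 46.2 FPKM, while replicate 2 lies among them at 29.9 FPKM.

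Fabp4 had the largest log2 fold change of the 4 genes that could be tested, in the direction of lower levels in siS100A16, but its groups overlapped in 1 sample and it did not pass the test. It had 3.28, 29.9 and 4.37 FPKM in siS100A16, against 35.3, 28.9 and 46.2 FPKM in siNC. The first and the third siS100A16 sample were below all siNC samples, and the second lay within the siNC range, just above its lowest sample. These values rest on 27, 227 and 28 reads in siS100A16 and on 317, 245 and 442 reads in siNC. The counting interval of the second siS100A16 sample, 26.2 to 34.1 FPKM, overlapped those of siNC replicates 1 and 2 and was far from those of the other siS100A16 samples, 2.16 to 4.77 and 2.91 to 6.32 FPKM.

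Mean Fabp4 was 12.5 ± 15.1 FPKM in siS100A16 and 36.8 ± 8.73 FPKM in siNC (SD, n = 3 each). The log2 fold change was -2.06 (SE 0.67, 95% interval -3.59 to -0.52), which corresponds to FPKM + 1 being 4.16-fold higher in siNC as a geometric mean. That fit used a common variance for both groups, although the SD of Fabp4 on this scale was 1.56 in siS100A16 and 0.33 in siNC. The interval and the p-values of the fit therefore rest on an equal spread that these SDs do not show. Only 0.5% of the 12336 tested genes had a lower log2 fold change, and the median of all tested genes was 0.17, so that the value of Fabp4 relative to that median was -2.23. This rank was taken over genes of all levels, and the added 1 shrinks fold changes more in genes of low FPKM. With a limma adjusted p of 0.0635 (unadjusted 0.015) Fabp4 did not pass the threshold. An exact two-sided permutation test on mean FPKM gave p = 0.2 for Fabp4, where 0.1 is the smallest that 3 samples against 3 allow. Without siS100A16 replicate 2 its log2 fold change was -2.95 with a limma adjusted p of 0.00458. In the fits without the first or the third siS100A16 sample it was -1.53 and -1.69, with limma adjusted p of 0.193 and 0.196. It also passed by limma voom on reads worked out from the FPKM values, with a log2 fold change of -2.25 and an adjusted p of 0.0275, as well as after quantile normalization and among genes with a mean of at least 5 FPKM, where 12.7% and 34.8% of the genes tested passed. Over 17 alternatives the log2 fold change kept its sign, between -2.95 and -1.53, and the limma adjusted p ran from 0.00458 to 0.196, under 0.05 in 5 of them.

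Lpl had 4.5, 16.8 and 13.7 FPKM in siS100A16, against 12.7, 11.7 and 9.67 FPKM in siNC. As with Pparg, the first siS100A16 sample was below all siNC samples and the other two were above them. The reads numbered 115, 394 and 272 in siS100A16 and 354, 308 and 287 in siNC. Mean Lpl was 11.7 ± 6.38 FPKM in siS100A16 and 11.4 ± 1.55 FPKM in siNC (SD, n = 3 each). The log2 fold change of -0.12 (95% interval -1.07 to 0.82) did not pass the test (limma adjusted p = 0.86). It turned to 0.39 without siS100A16 replicate 1, with a limma adjusted p of 0.187, and to 0.02 with estimated sample weights. The interval holds values of FPKM + 1 from 0.476 to 1.77 times that of siNC.

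Cd36 was close to the limit of measurement, with 1.81, 1.11 and 0.708 FPKM in siS100A16 against 1.01, 0.764 and 0.474 FPKM in siNC. The reads were 23, 13 and 7 in siS100A16 and 14, 10 and 7 in siNC. The ranges overlapped, although the first and second siS100A16 samples were above all siNC samples. With a mean of 0.979 FPKM over the 6 samples, Cd36 was just under the minimum mean of 1 FPKM that a gene needed to be tested. With that minimum lifted, limma gave Cd36 an adjusted p of 0.565 over 22692 genes, with a log2 fold change of 0.32 and an SE of 0.29.

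Adipoq, whose product is secreted by mature fat cells, was barely detected. It had 1, 11 and 0 reads in siS100A16 and 10, 4 and 0 reads in siNC, or 0.122, 1.46 and 0 FPKM against 1.12, 0.474 and 0 FPKM. A count of 0 allows up to 3 reads as a one-sided limit, or 0.471 FPKM in the third siS100A16 sample and 0.315 FPKM in the third siNC sample. The two-sided 95% interval used for the other values reaches 3.69 reads, or 0.579 FPKM in that siS100A16 sample and 0.387 FPKM in that siNC sample. The sums over a group were 12 reads in siS100A16 and 14 in siNC. Each group held 1 sample with 10 or more reads and 1 with none, and no difference was detectable at this depth.

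Between them, 4 of the 6 genes were tested: Pparg, Cebpa, Fabp4 and Lpl. None of these was called (limma, adjusted p under 0.05), where 20.7% of all 12336 tested genes were, 16.4% higher and 4.27% lower in siS100A16. At an unadjusted p under 0.05 there was 1, Fabp4, against 35.3% of all tested genes, and limma voom called 1, Fabp4, against 21.5%. Without siS100A16 replicate 1 the call was Pparg alone and without siS100A16 replicate 2 it was Fabp4 alone, where 17.3% and 25.8% of all tested genes were called. Leaving Cebpa aside for its length, 0 of 3 were called. The ranges of siS100A16 and siNC overlapped for each of the 6 genes, while they did not overlap for 41.6% of all tested genes.

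**Figure D2:**
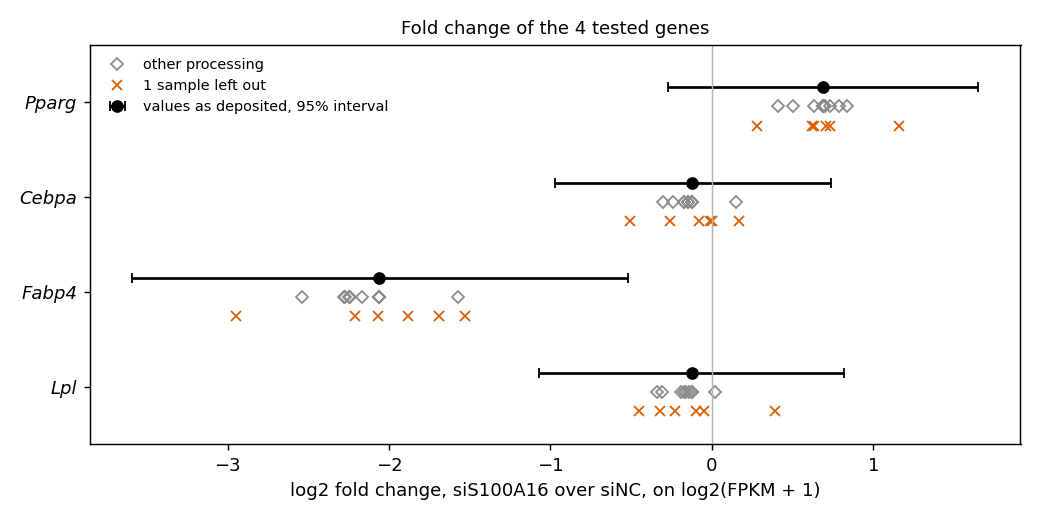
Log2 fold change, siS100A16 over siNC, of the 4 tested genes on the log2(FPKM + 1) scale: filled points with 95% intervals for the values as deposited, diamonds for other processing and crosses for fits with 1 sample left out. Fabp4 stays below 0 throughout, from -2.95 to -1.53, and Pparg above 0, from 0.28 to 1.16, whereas Cebpa and Lpl lie on either side of 0.

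The order of the genes by level differed between the groups in its clarity. In siS100A16 the order of mean FPKM was Fabp4 (12.5), Lpl (11.7), Pparg (6.76), Cebpa (4.37), Cd36 (1.21) and Adipoq (0.526), and the only neighbours whose ranges did not overlap were Cebpa and Cd36. In siNC the order was Fabp4 (36.8), Lpl (11.4), Cebpa (4.4), Pparg (3.29), Cd36 (0.749) and Adipoq (0.531), and overlaps remained only between Cebpa and Pparg and between Cd36 and Adipoq. Mean Fabp4 exceeded that of 59.7% of tested genes in siS100A16 and of 84.7% in siNC. Mean Pparg exceeded that of 44.0% in siS100A16 and of 27.3% in siNC. Mean Lpl exceeded that of 58.1% of tested genes in siS100A16 and of 61.3% in siNC, and mean Cebpa that of 33.6% in siS100A16 and of 34.9% in siNC.

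Ratios between genes within a library do not depend on how libraries are scaled to each other. They were chosen after the values were seen, and groups that do not overlap are common by this measure. Among all pairs of the 11385 tested genes with reads in all samples, 37.6% of ratios did not overlap between siS100A16 and siNC. That share leaves out genes under the minimum level for testing, such as Cd36, which enters some of the ratios below. The ratio of Fabp4 to Pparg in FPKM was 1.27, 4.55 and 0.393 in siS100A16, against 10.4, 9.81 and 13.1 in siNC. Every siS100A16 sample was below every siNC sample, the second siS100A16 sample included, since its Fabp4 was at the siNC level but its Pparg was higher. The difference of the mean log2 ratio, siS100A16 minus siNC, was -3.06 (exact two-sided permutation p = 0.1, the smallest that 3 samples against 3 allow).

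The ratio of Fabp4 to Lpl was 0.728, 1.79 and 0.319 in siS100A16 and 2.78, 2.47 and 4.77 in siNC. The ratio of Fabp4 to Cebpa was 1.01, 3.95 and 1.9 in siS100A16 and 6.74, 8.54 and 10.1 in siNC. Fabp4 to Cd36, which rests on few Cd36 reads, was 1.81, 27.0 and 6.18 in siS100A16 and 35.0, 37.8 and 97.5 in siNC. The 4 ratios with Fabp4 thus did not overlap between the groups and were lower in siS100A16, each with an exact two-sided permutation p of 0.1, or 0.2 after adjustment over the 10 ratios computed. They share the Fabp4 values and are not 4 independent results.

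One ratio without Fabp4 did not overlap either: Lpl to Pparg was 1.75, 2.54 and 1.23 in siS100A16 and 3.73, 3.98 and 2.75 in siNC. The nearest values, 2.54 in siS100A16 replicate 2 and 2.75 in siNC replicate 3, were close, and mean Lpl was nearly the same in both groups. Of the 10 ratios among the 5 genes with reads in all samples, 5 did not overlap between groups. The share was 37.6% over all pairs of tested genes, a set without Cd36. Each of the 5 had an exact two-sided permutation p of 0.1, or 0.2 after Benjamini-Hochberg adjustment over the 10. Any ratio without overlap has this p of 0.1, the smallest possible here. The p-values of the 5, those with Fabp4 included, therefore only restate the lack of overlap.

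**Figure D3:**
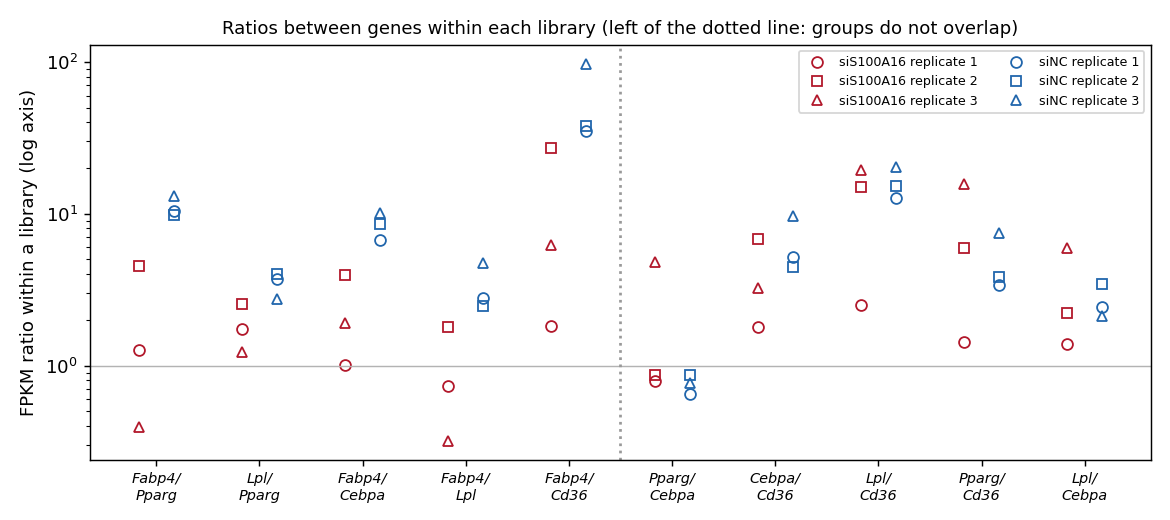
FPKM ratio of one gene to another within each library, on a log axis, for the 10 pairs of the 5 genes with reads in all samples; at each pair siS100A16 is at the left and siNC at the right, with circle, square and triangle for replicates 1, 2 and 3. Left of the dotted line are the 5 pairs whose groups do not overlap, among them Fabp4 to Pparg with 0.393 to 4.55 in siS100A16 and 9.81 to 13.1 in siNC.

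The siS100A16 samples differed among themselves in these genes more than the siNC samples did. The highest value was 4.32 times the lowest for Pparg, 3.28 times for Cebpa, 9.14 times for Fabp4 and 3.72 times for Lpl in siS100A16. In siNC the same measure was 1.2, 1.55, 1.6 and 1.31 for these genes in the same order. A wider spread in siS100A16 was general. The siS100A16 libraries also had fewer reads and fewer genes above 0, 15778 to 16609 against 17895 to 18038 in siNC. Whether this bears on the spread was not tested. Genes of like level were those within 1.5-fold of a gene's mean FPKM over all 6 samples, 24.7 FPKM for Fabp4. For Fabp4 their median SD on the log2(FPKM + 1) scale was 0.29 in siS100A16 and 0.16 in siNC. In siS100A16 alone mean Fabp4 was lower, at 12.5 FPKM, and the genes of like level to Lpl had a larger median SD there, 0.35. The SD of Fabp4 itself was 1.56 in siS100A16, larger than that of 99.5% of 1884 genes of like level, and 0.33 in siNC, larger than that of 90.2% of them. For Lpl, with an SD of 0.91 in siS100A16, the share was 93.4% of 2469 genes, for Pparg, with 0.89, it was 85.3% of 2646, and for Cebpa, with 0.71, it was 74.8% of 2571. Among the same genes the SD in siNC was larger than that of 58.4% for Lpl, 24.3% for Pparg and 72.5% for Cebpa, so that the rank of Cebpa by spread was nearly the same in both groups.

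**Figure D4:**
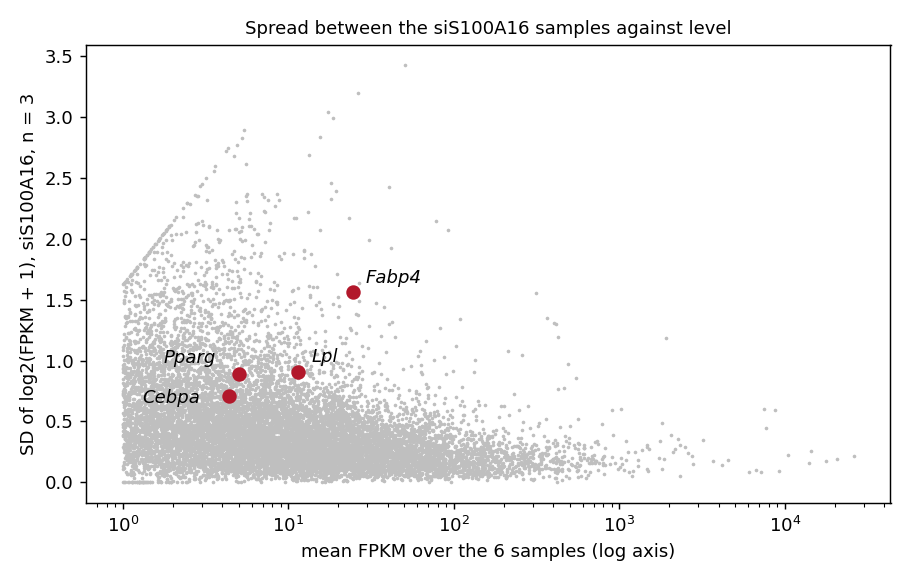
SD of log2(FPKM + 1) over the 3 siS100A16 samples against the mean FPKM over all 6 samples, on a log axis, for the 12336 tested genes (grey) and the 4 tested genes named (red). Fabp4, with an SD of 1.56, stands above 99.5% of genes of like level.

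No single siS100A16 sample stood apart in the same way for all 6 genes. The second was highest of the 3 for Cebpa, Fabp4, Lpl and Adipoq, the third for Pparg and the first for Cd36, while 34.3% of all tested genes were highest in the second. The first was lowest for Pparg, Fabp4 and Lpl, and 38.9% of all tested genes were lowest there. The third was lowest for Cebpa, Cd36 and Adipoq, and 32.6% of all tested genes were lowest there. Cd36 and Adipoq are not among the tested genes. By distance to the siNC mean on the log2(FPKM + 1) scale, the second sample was the nearest of the 3 for 47.7% of all tested genes, but among these 6 it was so for Fabp4 alone. Of the 12 Adipoq reads in siS100A16, 11 were in the second sample, and of the 43 Cd36 reads, 23 were in the first. Which property of the samples moves with these differences was not tested.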

How the data were processed

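The authors deposited 1 table of FPKM values for 30560 genes in 6 samples, identified by rat Ensembl identifiers. The submitters' processing notes name the tools HISAT2 2.1.0 and DESeq2 1.14.1 with no role, and mm10, a mouse genome build. For the read counter and the annotation nothing is stated there. Columns named Con were assigned to siNC, whose genotype label is Control, and columns named Exp to siS100A16, the only other group. The number in the column name was matched to that in the sample title. This assignment of groups was not checked by the level of S100A16, so the direction of each difference rests on it. Reads, gene lengths and library totals were worked out from the FPKM values, whose ratios were ratios of whole numbers for all 22692 genes above 0 (relative tolerance 1e-11). Differences on the log2(FPKM + 1) scale, without rescaling of libraries, were tested by limma 3.58.1 (R 4.3.3) for the 12336 genes whose mean reached 1 FPKM, with group as the only term, a variance prior that followed the mean, and Benjamini-Hochberg adjustment over all of them. As separate cultures are not documented, the p-values rest on a spread between samples that could be technical. The fit also took that spread to be equal in both groups, while it was larger in siS100A16 for Pparg, Cebpa, Fabp4 and Lpl. The genes and lists were chosen with earlier results of these data known. The rule for named genes took the 6 genes, S100a16, members of 7 pathway lists and the tested genes with a symbol most like each of the 6. Without names for identifiers, S100a16, those lists, 5 lists of cell type markers and the most similar genes were not analysed here.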

Additional observations from a re-analysis of the deposited data

How the results depend on the processing

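Over all tested genes, quantile normalization gave 1563 calls in place of 2556, 705 higher and 858 lower in siS100A16 in place of 2029 and 527. Removal of each library's length trend gave 1418, 765 of them higher, and median of ratios 928 higher and 821 lower. Median of ratios moved the median log2 fold change of all tested genes to -0.02, against 0.17 as deposited. Leaving out 1 sample gave 552 to 3182 calls, 459 to 2198 higher and 93 to 984 lower; the fewest came without siNC replicate 2 and the most without siS100A16 replicate 2. Of the genes described, 0 calls became 1, Fabp4, with a minimum mean of 5 FPKM (limma adjusted p = 0.0373), quantile normalization (0.0476), limma voom (0.0275) and the replicate number as a block (0.0476, with 2246 calls over all genes), and leaving out 1 sample gave 0 to 1. The numbers were not taken to pair samples, because the labels do not say that a shared number does so. The deviations of same-numbered samples from their group means correlated at -0.03, 0.05 and 0.04. Log2 fold changes that reversed were those of Cebpa, 0.15 with sample weights and 0.17 without siS100A16 replicate 3, and of Lpl, 0.02 with sample weights and 0.39 without siS100A16 replicate 1. Leaving out 1 sample at a time gave -0.51 to 0.17 for Cebpa and -0.45 to 0.39 for Lpl. Adipoq, tested only without a minimum level, also changed sign, with a log2 difference of -0.06 from all samples and 0.1, 0.18 and 0.21 without siS100A16 replicate 1, siS100A16 replicate 3 and siNC replicate 1, within a range of -0.46 to 0.21. The cause of these changes was not tested. Fits with 1 sample left out have fewer samples. Cebpa could not be fitted at a minimum of 5 FPKM, and Cd36 and Adipoq, with 74 and 26 reads in all, were fitted only without a minimum, so read depth limits both.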
